A study of Homo sapiens with 8 samples.

Results

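The genes described here make up the routes of cholesterol and fatty acid synthesis. They were taken from a list of 30 named members, of which 27 had a probe set annotated to that gene symbol alone, among 19775 such genes in all. Where a gene had several, the brightest on average over all arrays stood for it, and those with the suffix _x_at, which may bind transcripts of several genes, served only where no other existed. CYP51A1, FADS1 and FDFT1 had no such probe set and are not analysed here. All 27 measured members passed the filter on dim genes and stood among 13647 genes tested.

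Cells came from H9, an established human embryonic stem cell line, maintained on inactivated mouse fibroblast feeder layers. The 4 groups were undifferentiated, unsorted H9 cells (day 0) and cells positive for both KDR, a receptor of vascular endothelial growth factor, and CD31, the endothelial adhesion molecule, sorted after 4, 6 and 8 days of differentiation toward blood in serum-free medium with BMP-4. Each group had 2 Affymetrix arrays, labelled as biological replicates 1 and 2. Separate cultures are not stated, so p-values measure the spread between arrays, which may be technical, and few arrays limit precision. Day, sorting and culture conditions, among them the medium with BMP-4, changed together against day 0 and cannot be told apart.

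Cholesterol is built from acetyl-CoA, through mevalonate and isoprenoid units to squalene, which is closed into lanosterol and then trimmed and rearranged to cholesterol. The SREBP transcription factors, held in the endoplasmic reticulum by SCAP and INSIG proteins when sterols are plentiful, reach the nucleus when sterols are scarce and switch on most genes of the route, with NF-Y as a common partner at their promoters. Fatty acids start from the same acetyl-CoA, which ACLY supplies and ACACA and FASN turn into palmitate, and desaturases and elongases shape the chain. Dividing cells use both routes to build membrane.

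Levels are log2(intensity + 32), written as log2 intensity, and a change is a difference of group means on that scale with its SE from the fit over all groups. The array median lay between 6.92 and 6.97 on this scale. On each sorted array 7 of 7 endothelial markers were above the array median, the gate genes KDR and PECAM1 (CD31) among them, and 4 of 7 on each day 0 array. Markers of other cell types were above it too on sorted arrays, 4 to 10 of 11 for endoderm and 5 to 8 of 8 for smooth muscle and fibroblasts. On both day 0 arrays these were already 6 of 11 and 8 of 8. Of 6 markers of undifferentiated cells, 6 were above it on both day 0 arrays and 2 to 4 on the sorted arrays. Among the sorted arrays, replicate 1 at day 4 and at day 6 lay apart from the remaining 4. Pearson's r across genes was 0.976 between these 2 arrays, against 0.953 between the day 4 arrays and 0.937 between the day 6 arrays. The other 4 sorted arrays correlated with each other at 0.972 to 0.99. Nothing in the labels makes either replicate of these days the better one. Results against day 0 are therefore also given with replicate 1 of both days removed and with replicate 2 of both days removed, 2 settings picked once the data had been examined. Both leave 1 array at day 4 and at day 6, so each gene's own spread comes from the day 0 and day 8 arrays alone. More of all genes then passed, and a pass in these settings is not read as support for a change.

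Across the days, 3 members passed the threshold (adjusted p under 0.05 in limma), all of them lower in the sorted cells. ACACA, acetyl-CoA carboxylase, which commits acetyl-CoA to fatty acid synthesis, fell at day 4, day 6 and day 8 against day 0. PMVK, the kinase that acts on phosphomevalonate, and TM7SF2, a sterol reductase of the late route, fell at day 6. No member rose. In counts, 1 of 27 members (3.7%) was called at day 4, 3 (11.1%) at day 6 and 1 (3.7%) at day 8, while 18.4%, 23.4% and 24.5% of all genes tested were called in these comparisons. The comparisons share the 2 day 0 arrays. With replicate 1 of both day 4 and day 6 removed the counts were 7, 9 and 8 members (25.9%, 33.3% and 29.6%), against 34.9%, 44.7% and 49.7% of all genes. With replicate 2 removed they were 12, 14 and 9 (44.4%, 51.9% and 33.3%), against 35.5%, 38.1% and 49.7% of all genes. At day 6, ACAT2, EBP, HMGCS1 and MSMO1 were called in both settings, with opposite signs. The differences of NSDHL, HSD17B7, SC5D, INSIG1, DHCR7 and other members also differed in sign between them, without a call in both.

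The median change of the 27 members was 0.04 at day 4, 0.11 at day 6 and -0.05 at day 8 against day 0, beside 0.02, -0.03 and -0.03 over all genes tested. Without regard to sign, the median size of the change was 0.19, 0.24 and 0.23 for members and 0.32, 0.37 and 0.40 for all genes. The median SE was 0.31 for members and 0.21 for all genes, so the members' changes were smaller and their errors wider. At day 4 the arrays did not overlap with those of day 0 for 9 members (4 higher and 5 lower), against 66.1% of all genes. At day 6 this held for 8 members (5 higher and 3 lower), against 65.7% of all genes, and at day 8 for 18 members (10 higher and 8 lower), against 77.8%. All values are shown in the plot of levels by array.

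**Figure D1:**
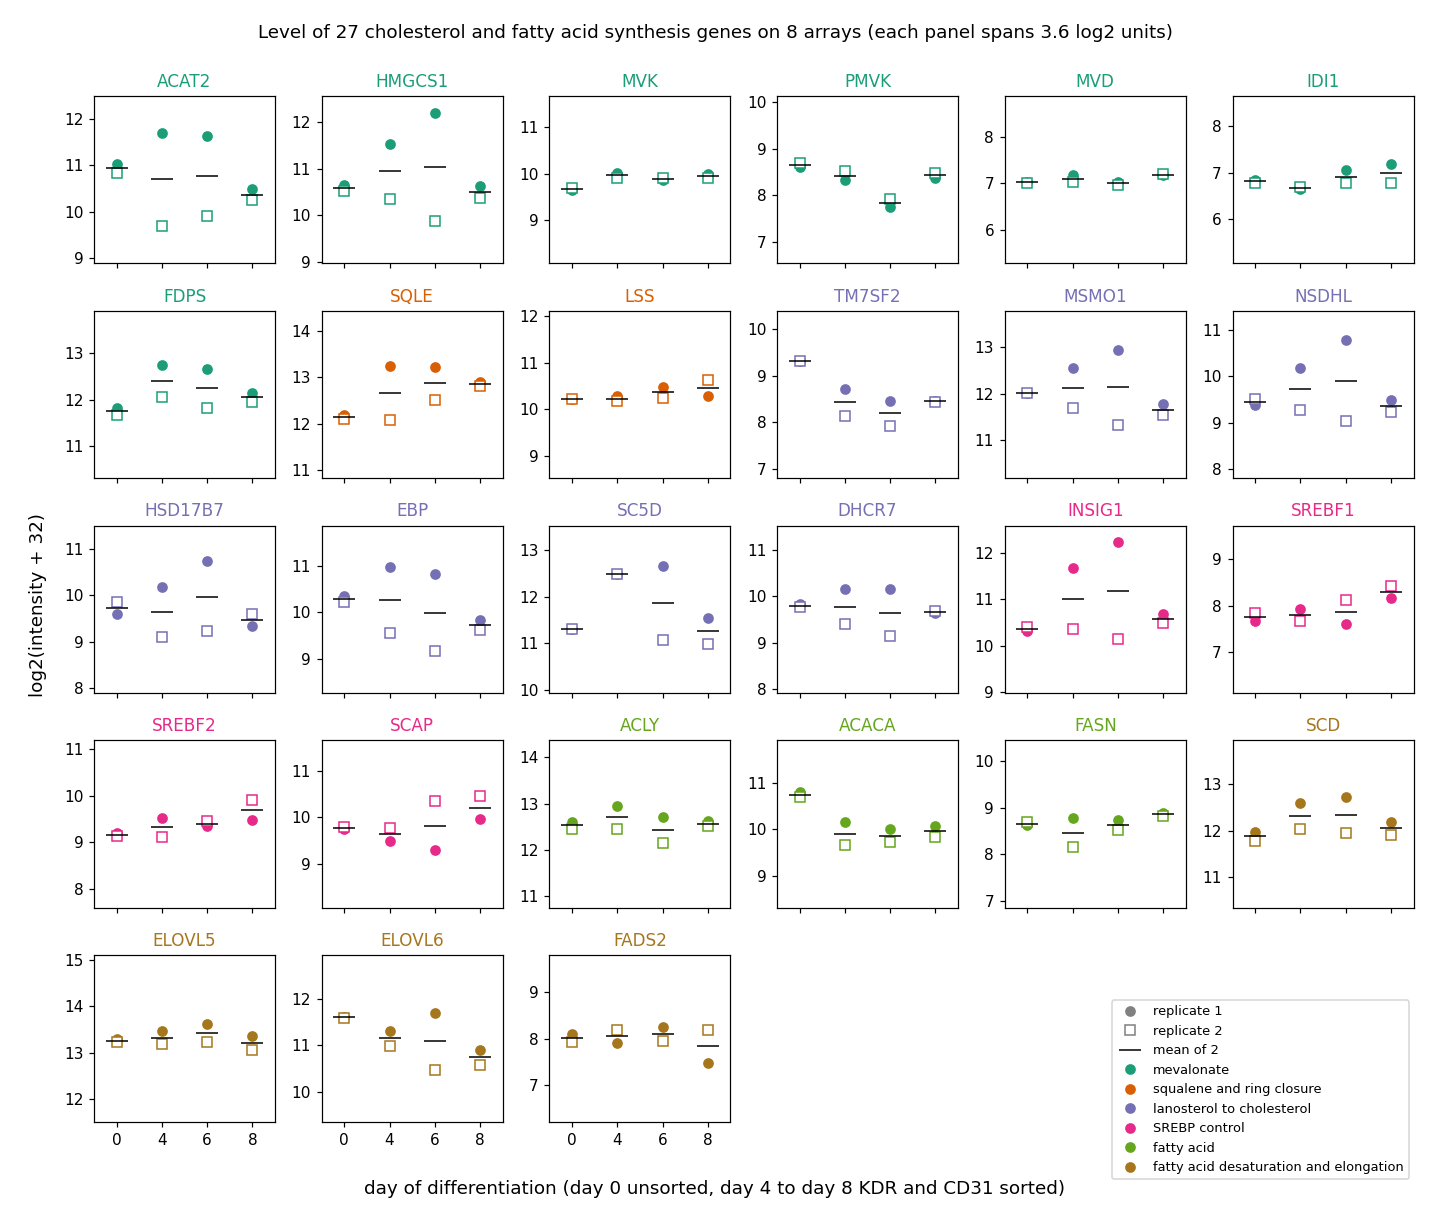
Level of each of the 27 measured genes, as log2(intensity + 32), on the 2 arrays of day 0, day 4, day 6 and day 8, with replicate 1 as filled circles, replicate 2 as open squares and the mean as a bar. Every panel spans the same number of log2 units. ACACA and TM7SF2 lie lower on all sorted arrays than on both day 0 arrays, while HMGCS1, INSIG1 and NSDHL lie far apart between the 2 arrays of day 6.

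Among the mevalonate genes, 7 of which were measured, PMVK alone passed a test. It stood at 8.61 and 8.69 (day 0), 8.32 and 8.52 (day 4), 7.74 and 7.91 (day 6) and 8.37 and 8.48 (day 8). The day 6 arrays lay below all others. PMVK fell at day 6 against day 0 by 0.82 ± 0.15 (SE), or 1.77-fold (adjusted p = 0.0101), and was lower by 0.23 ± 0.15 at day 4 and 0.22 ± 0.15 at day 8 with adjusted p of 0.37 and 0.335. Its day 6 call was lost without replicate 1 (adjusted p = 0.0796) or replicate 2 (adjusted p = 0.0992) of day 0.

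HMGCS1, the cytosolic enzyme that makes HMG-CoA, had a log2 intensity of 10.65 and 10.52 (day 0), 11.54 and 10.35 (day 4), 12.20 and 9.87 (day 6) and 10.62 and 10.36 (day 8). ACAT2, which condenses acetyl-CoA at the entry of the route, had 11.02 and 10.83 (day 0), 11.69 and 9.70 (day 4), 11.62 and 9.91 (day 6) and 10.48 and 10.24 (day 8). For both genes, replicate 1 of day 4 and of day 6 was the highest and replicate 2 of these days the lowest of all arrays of the series. The change of HMGCS1 at day 6 against day 0 was 0.45 ± 0.73 (SE), with a 95% interval from -1.28 to 2.17, and that of ACAT2 at day 4 was -0.23 ± 0.73, with an interval from -1.96 to 1.51. The direction of both depended on which replicate was kept. With replicate 1 of both days removed, the day 6 difference from day 0 was -0.72 for HMGCS1 (adjusted p = 0.0201) and -1.01 for ACAT2 (adjusted p = 0.00747). With replicate 2 removed it was 1.61 for HMGCS1 (adjusted p = 0.00186) and 0.69 for ACAT2 (adjusted p = 0.0264).

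FDPS, which makes farnesyl pyrophosphate, stood at 11.83 and 11.67 (day 0), 12.75 and 12.06 (day 4), 12.67 and 11.83 (day 6) and 12.15 and 11.96 (day 8). Both arrays of day 4 and of day 8 lay above those of day 0. The changes of 0.65 ± 0.33, 0.50 ± 0.33 and 0.31 ± 0.33 (SE) at day 4, day 6 and day 8 did not pass (adjusted p 0.234, 0.33 and 0.54). MVK, mevalonate kinase, differed by 0.29, 0.22 and 0.28 with an SE of 0.16 each, its 6 sorted arrays lying between 9.87 and 10.02 and those of day 0 at 9.65 and 9.70. MVD, the decarboxylase that yields isopentenyl pyrophosphate, lay between 6.96 and 7.20 on all arrays, close to the array median.

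The enzymes that make and close squalene were represented by SQLE, squalene epoxidase, and LSS, lanosterol synthase. SQLE had a log2 intensity of 12.19 and 12.09 (day 0), 13.24 and 12.07 (day 4), 13.21 and 12.52 (day 6) and 12.89 and 12.82 (day 8). Its level at day 6 and day 8 was above day 0 on every array, by 0.73 ± 0.39 and 0.72 ± 0.39 (SE), and neither change passed (adjusted p 0.234 and 0.222). The same day 8 difference of 0.72 passed with replicate 1 of both earlier days removed (adjusted p = 0.00303) and with replicate 2 removed (adjusted p = 0.00296), where only the estimate of spread differs. LSS differed by 0.01, 0.14 and 0.23 at the 3 later days, each with an SE of 0.19.

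Of the 7 genes between lanosterol and cholesterol, TM7SF2 was lower on every sorted array. It stood at 9.32 and 9.31 (day 0), 8.72 and 8.13 (day 4), 8.46 and 7.92 (day 6) and 8.46 and 8.44 (day 8). TM7SF2 fell at day 6 against day 0 by 1.12 ± 0.26 (SE), or 2.18-fold (adjusted p = 0.0217), and missed the threshold by little at day 4, with -0.89 ± 0.26 (adjusted p = 0.0572), and at day 8, with -0.86 ± 0.26 (adjusted p = 0.0509). Leaving out a day 0 array ended the day 6 call (adjusted p 0.129 for replicate 1 and 0.124 for replicate 2), as did leaving out the second day 6 array (adjusted p = 0.0726). TM7SF2 kept its direction in both added settings, with -1.18, -1.39 and -0.86 when replicate 1 was removed and -0.59, -0.85 and -0.86 when replicate 2 was removed.

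SC5D, a desaturase of the sterol ring, showed the largest positive difference from day 0 among the members, at day 4. It had 11.32 and 11.32 (day 0), 12.50 and 12.49 (day 4), 12.66 and 11.07 (day 6) and 11.54 and 10.99 (day 8). The day 4 arrays were 0.01 apart and lay above both day 0 arrays, while the day 6 arrays lay on either side of them. The difference of 1.17 ± 0.48 (SE) at day 4, or 2.25-fold, did not pass (adjusted p = 0.147). It was 1.17 with replicate 1 of both days removed and 1.18 with replicate 2 removed, settings in which day 4 is 1 array.

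The remaining genes of the late route, MSMO1, NSDHL, HSD17B7, EBP and DHCR7, gave no call with all arrays, and each lay apart between the arrays of day 4 and of day 6. MSMO1, the oxidase that starts removal of the C4 methyl groups, had 12.01 and 12.02 (day 0), 12.55 and 11.70 (day 4), 12.94 and 11.33 (day 6) and 11.77 and 11.54 (day 8). NSDHL, the dehydrogenase of the same reaction, had 9.38 and 9.51 (day 0), 10.17 and 9.28 (day 4), 10.77 and 9.03 (day 6) and 9.49 and 9.24 (day 8). HSD17B7, the ketoreductase that follows, had 9.59 and 9.85 (day 0), 10.17 and 9.09 (day 4), 10.73 and 9.22 (day 6) and 9.34 and 9.59 (day 8). In these 3 genes the arrays of replicate 1 lay above day 0 and those of replicate 2 below it at day 4 and at day 6.

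EBP, the sterol isomerase, had a log2 intensity of 10.35 and 10.21 (day 0), 10.96 and 9.55 (day 4), 10.83 and 9.16 (day 6) and 9.82 and 9.62 (day 8). Means of the 5 genes differed from day 0 by between -0.55 and 0.45 over the 3 later days, with SEs from 0.38 for DHCR7, the last reductase of one branch, to 0.61 for EBP. Here too the direction turned with the replicate kept. For EBP the day 6 difference was -1.11 with replicate 1 of both days removed (adjusted p = 0.00421) and 0.55 with replicate 2 removed (adjusted p = 0.0419). For MSMO1 it was -0.68 (adjusted p = 0.015) and 0.93 (adjusted p = 0.00634). NSDHL and HSD17B7 passed at day 6 with replicate 2 removed, by 1.33 and 1.01, and DHCR7 with replicate 1 removed, by -0.66.

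**Figure D2:**
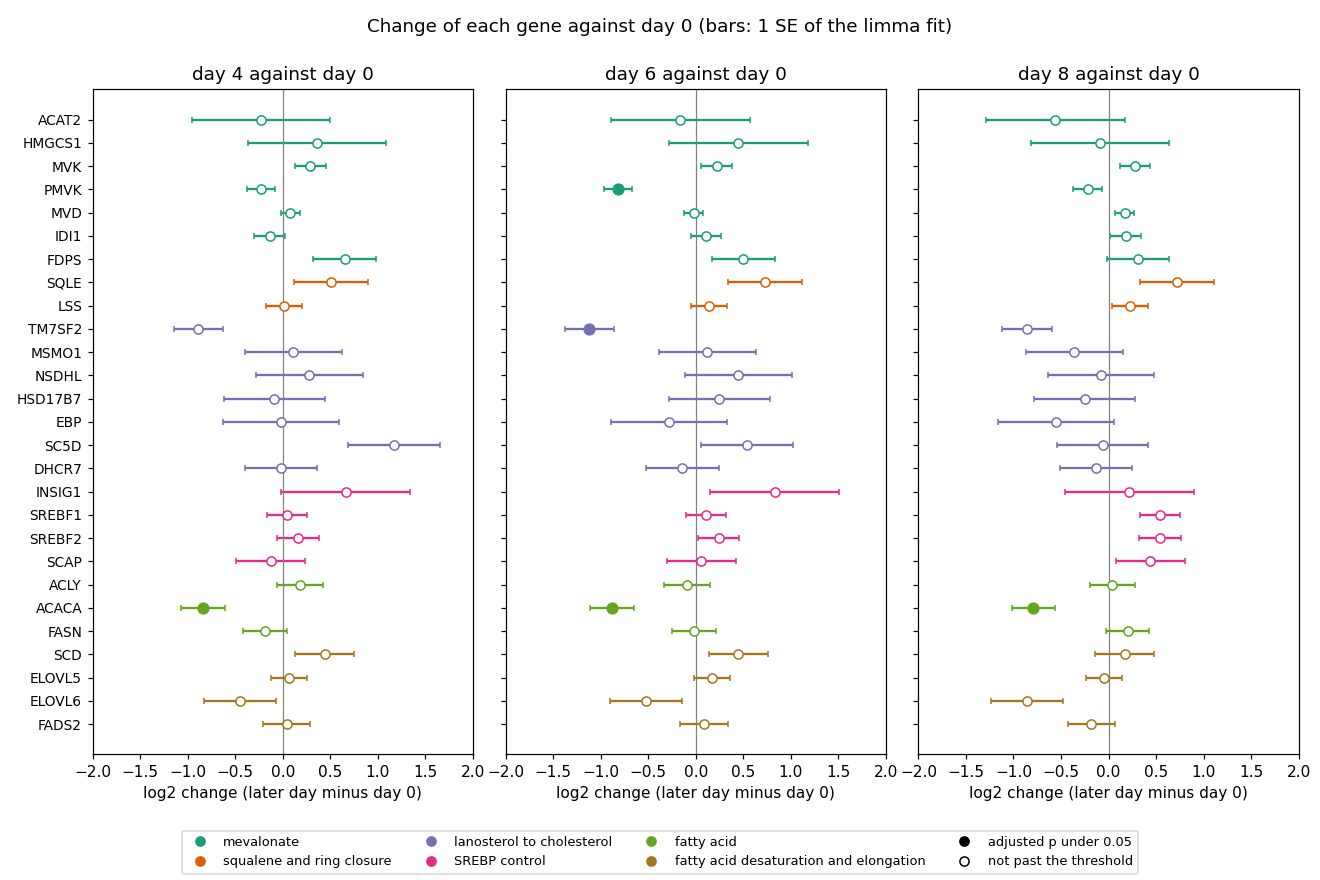
Log2 change of each gene at day 4, day 6 and day 8 against day 0, with bars of 1 SE from the fit over all 8 arrays and filled symbols where the adjusted p was under 0.05. ACACA is filled in all 3 panels and PMVK and TM7SF2 at day 6, and no filled symbol lies above 0.

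The regulators of the route were INSIG1, which retains SCAP in the endoplasmic reticulum and is itself an SREBP target, SREBF1 and SREBF2, the genes of the SREBP proteins, and SCAP, their escort. INSIG1 had 10.32 and 10.39 (day 0), 11.66 and 10.36 (day 4), 12.22 and 10.15 (day 6) and 10.68 and 10.48 (day 8). Replicate 1 of day 4 and of day 6 lay above every other array, and both day 8 arrays lay slightly above those of day 0. The changes against day 0 were 0.66, 0.83 and 0.22 with an SE of 0.68 each, and none passed (adjusted p 0.569, 0.439 and 0.848). With replicate 2 of both days removed, INSIG1 was higher by 1.31 at day 4 and 1.86 at day 6 (adjusted p 0.00268 and 0.000867).

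SREBF2 had 9.19 and 9.13 (day 0), 9.52 and 9.12 (day 4), 9.35 and 9.45 (day 6) and 9.48 and 9.91 (day 8). SREBF1 had 7.67 and 7.83 (day 0), 7.92 and 7.66 (day 4), 7.60 and 8.11 (day 6) and 8.17 and 8.42 (day 8). Both genes were higher at day 8 than at day 0 on every array, by 0.54 ± 0.22 and 0.54 ± 0.21 (SE), without passing (adjusted p 0.126 and 0.107). In the added settings the day 8 difference of both genes stayed at 0.54, and only the estimate of spread differed. SCAP stood at 9.74 and 9.79 (day 0), 9.50 and 9.78 (day 4), 9.29 and 10.36 (day 6) and 9.96 and 10.46 (day 8). Its replicate 1 of day 6 was the lowest of the 8 arrays, where INSIG1 was highest.

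The promoters of 26 of the 30 members were found by symbol in a RefSeq table of build GRCh38.p14, as 35 windows (ACAT2, FASN, FDFT1 and SQLE were not matched), some of which overlap because a gene has several starts. In the 250 bases before the start, both strands were searched for CCAAT, the core bound by NF-Y, and for CACNCCAC, a core of the sterol regulatory element. CCAAT was found in 23 of the 35 windows (65.7%) and in 32% of all 35116 promoters in the table, and at least 2 copies in 42.9% and 9.53%. The SREBP core was found in 6 windows (17.1%) and in 4.87% of all promoters. These are matches of letters and not measured binding. The 5 windows printed here were not chosen by a set rule. EBP and HSD17B7, with 3 and 1 CCAAT cores, lay further apart between replicates than FDPS on both days and are not printed. Shown are 4 genes higher on replicate 1 at day 4 and day 6 (FDPS, MSMO1, NSDHL and INSIG1) and SREBF2, the regulator. They are printed 5′ to 3′ on the plus strand, with the matches of either motif, on either strand, in capitals.
FDPS: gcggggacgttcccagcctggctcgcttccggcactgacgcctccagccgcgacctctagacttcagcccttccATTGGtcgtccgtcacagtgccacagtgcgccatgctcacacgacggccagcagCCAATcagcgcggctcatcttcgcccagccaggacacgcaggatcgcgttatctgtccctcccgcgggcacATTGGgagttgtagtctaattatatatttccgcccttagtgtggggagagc
MSMO1: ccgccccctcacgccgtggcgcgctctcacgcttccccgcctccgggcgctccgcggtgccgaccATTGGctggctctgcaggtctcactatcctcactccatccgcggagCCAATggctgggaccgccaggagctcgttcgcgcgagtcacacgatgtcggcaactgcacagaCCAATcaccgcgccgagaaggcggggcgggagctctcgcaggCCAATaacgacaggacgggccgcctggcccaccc
NSDHL: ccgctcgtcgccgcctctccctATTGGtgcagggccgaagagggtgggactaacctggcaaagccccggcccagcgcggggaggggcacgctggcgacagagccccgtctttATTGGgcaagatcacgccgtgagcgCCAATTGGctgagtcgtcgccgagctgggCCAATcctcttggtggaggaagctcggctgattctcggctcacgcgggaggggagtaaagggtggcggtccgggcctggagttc
INSIG1: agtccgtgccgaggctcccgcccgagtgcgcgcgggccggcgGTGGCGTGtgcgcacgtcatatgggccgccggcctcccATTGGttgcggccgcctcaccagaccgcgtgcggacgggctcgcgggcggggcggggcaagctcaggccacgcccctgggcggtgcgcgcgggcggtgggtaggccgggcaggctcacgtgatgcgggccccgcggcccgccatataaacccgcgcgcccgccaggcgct
SREBF2: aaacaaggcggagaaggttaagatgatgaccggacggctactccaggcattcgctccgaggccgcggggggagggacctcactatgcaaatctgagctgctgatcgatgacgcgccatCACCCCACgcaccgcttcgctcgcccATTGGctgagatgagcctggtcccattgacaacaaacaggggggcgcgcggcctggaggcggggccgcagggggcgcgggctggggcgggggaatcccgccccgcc

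The FDPS window (chr1:155308616-155308865) holds 3 CCAAT cores, first bases 176, 122 and 51 bases before the start, and the MSMO1 window (chr4:165327419-165327668) holds 4. The NSDHL window (chrX:152830813-152831062) holds 5, of which 2 on opposite strands overlap. INSIG1 (chr7:155297628-155297877) has 1 SREBP core on the minus strand, 208 bases before the start, and 1 CCAAT core. In SREBF2 (chr22:41832855-41833104) the SREBP core lies 132 bases before the start and the CCAAT core 106 bases before it. For 19 measured members with CCAAT in a window, the median difference between replicate 1 and replicate 2 was 0.58 at day 4 and 0.78 at day 6, and for the 5 without it, PMVK, SCAP, SREBF1, ELOVL6 and FADS2, it was -0.20 and -0.17. The same split was not made over all genes, and the part of the motif in these differences was not tested. IDI1 entered with a probe set near the array median. Single members went against these medians. ELOVL6, without CCAAT, lay 1.23 apart at day 6. MVK and MVD, with 5 and 3 cores, differed by 0.10 and 0.13 at day 4 and by -0.03 and 0.07 at day 6. MVD, like IDI1, lay near the array median, which leaves little room for a difference. The 3 other MVK probe sets above the filter differed by 0.13 to 0.51 at day 4 and by 0.16 to 0.36 at day 6.

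Among the genes that start fatty acid synthesis, ACACA was lower on every sorted array. It stood at 10.80 and 10.69 (day 0), 10.16 and 9.66 (day 4), 10.00 and 9.73 (day 6) and 10.08 and 9.84 (day 8). ACACA fell by 0.84 ± 0.23, 0.88 ± 0.23 and 0.79 ± 0.23 (SE) at day 4, day 6 and day 8 against day 0, or 1.78-fold, 1.84-fold and 1.72-fold (adjusted p 0.0474, 0.0342 and 0.0475). All 3 calls lie close to the threshold and were lost in 10, 6 and 8 of 21 alternatives, with an adjusted p of up to 0.269, 0.208 and 0.248. The second ACACA probe set, tested on its own, differed by -0.23, -0.19 and -0.38 and did not pass (adjusted p 0.529, 0.578 and 0.244).

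ACLY, which releases cytosolic acetyl-CoA from citrate, differed from day 0 by 0.18, -0.09 and 0.04 at day 4, day 6 and day 8, each with an SE of 0.24, its arrays lying between 12.16 and 12.95. Of the 2 other ACLY probe sets, tested on their own, 1 was lower on every sorted array and fell at day 6 by 0.75 (adjusted p = 0.0219), and the other differed there by -0.37 (adjusted p = 0.261). FASN, the fatty acid synthase, differed by -0.19, -0.02 and 0.20 with an SE of 0.23. Its levels were 8.62 and 8.70 (day 0), 8.77 and 8.15 (day 4), 8.73 and 8.53 (day 6) and 8.88 and 8.83 (day 8). FASN passed at day 4 (-0.50, adjusted p = 0.0354) with replicate 1 of both days removed and not with replicate 2 removed.

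ELOVL6, the elongase of saturated chains, had a log2 intensity of 11.61 and 11.58 (day 0), 11.31 and 10.98 (day 4), 11.70 and 10.46 (day 6) and 10.90 and 10.58 (day 8). Except for replicate 1 of day 6, the sorted arrays lay below day 0. The differences of -0.45, -0.52 and -0.86 with an SE of 0.38 did not pass (adjusted p 0.485, 0.391 and 0.15). With replicate 1 of both days removed they were -0.62, -1.14 and -0.86 and passed on all 3 days. With replicate 2 removed, ELOVL6 passed at day 8 alone (adjusted p = 0.00528).

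SCD, the desaturase that makes oleate, differed by 0.44, 0.45 and 0.17 with an SE of 0.31 (adjusted p 0.397, 0.349 and 0.729). Its replicate 1 arrays of day 4 and day 6 stood at 12.61 and 12.73, and the other sorted arrays between 11.92 and 12.20, against 11.98 and 11.78 at day 0. SCD passed with replicate 2 of both days removed, by 0.73 at day 4 and 0.84 at day 6. ELOVL5, which elongates polyunsaturated chains, varied least in this group, with all arrays between 13.05 and 13.62. FADS2, a desaturase of polyunsaturated chains, lay between 7.49 and 8.25, with its lowest value on replicate 1 of day 8.

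Within the sorted gate no gene passed, for members or for the whole table. Day 6 against day 4, day 8 against day 6 and day 8 against day 4 gave 0 of 27 members and 0% of all genes in limma, the only tool run. At an unadjusted p under 0.05 there were 1, 1 and 2 members and 722, 338 and 887 genes. The 4 instances were PMVK at day 6 against day 4 (-0.59 ± 0.15, SE) and at day 8 against day 6 (0.60 ± 0.15), and SC5D (-1.23 ± 0.48) and SREBF1 (0.50 ± 0.21) at day 8 against day 4. Their adjusted p was 0.843, 0.955, 0.724 and 0.724. With replicate 2 of day 4 and day 6 removed, 12 members passed at day 8 against day 6 and 8 at day 8 against day 4, against 17.6% and 19.2% of all genes. HMGCS1 (-1.70 and -1.05) and INSIG1 (-1.64 and -1.08) were among them. With replicate 1 removed no member passed.

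The widest differences among these genes lay between arrays of the same day. At day 6, replicate 1 was at least 2-fold above replicate 2 for 10 of 27 members, while this held for 5.37% of all genes tested. At day 4 it held for 6 members, against 4.1% of all genes. At day 8 and at day 0 it held for no member, against 1.32% and 0% of all genes. In the opposite direction SCAP at day 6 was the only member 2-fold apart, lower on replicate 1 by 1.07.

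The 10 members at day 6 were HMGCS1 (by 2.33), INSIG1 (2.07), NSDHL (1.75), ACAT2 (1.70), EBP (1.66), MSMO1 (1.61), SC5D (1.60), HSD17B7 (1.51), ELOVL6 (1.23) and DHCR7 (1.03), in log2 units of replicate 1 minus replicate 2. At day 4 the 6 were ACAT2 (1.99), EBP (1.40), INSIG1 (1.30), HMGCS1 (1.19), SQLE (1.16) and HSD17B7 (1.09). The median over the 27 members was 0.50 at day 4 and 0.56 at day 6, beside 0.12 and 0.07 over all genes. It was 0.05 at day 0 and 0.11 at day 8, beside 0.01 and 0.07. Related gene lists, described below, had these medians at day 4 and day 6. Supply of acetyl-CoA and NADPH had 0.51 and 0.45, mevalonate branches 0.44 and 0.31, and fatty acid activation and triglyceride 0.28 and 0.34. Further fatty acid enzymes had 0.29 and 0.22, regulators of SREBP 0.35 and 0.08, and fatty acid oxidation 0.21 and 0.01. Sterol uptake and storage had 0.16 and 0.01, and sterol export and LXR targets -0.16 and -0.34. No test was made on these differences, because each is 1 array against 1.

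**Figure D3:**
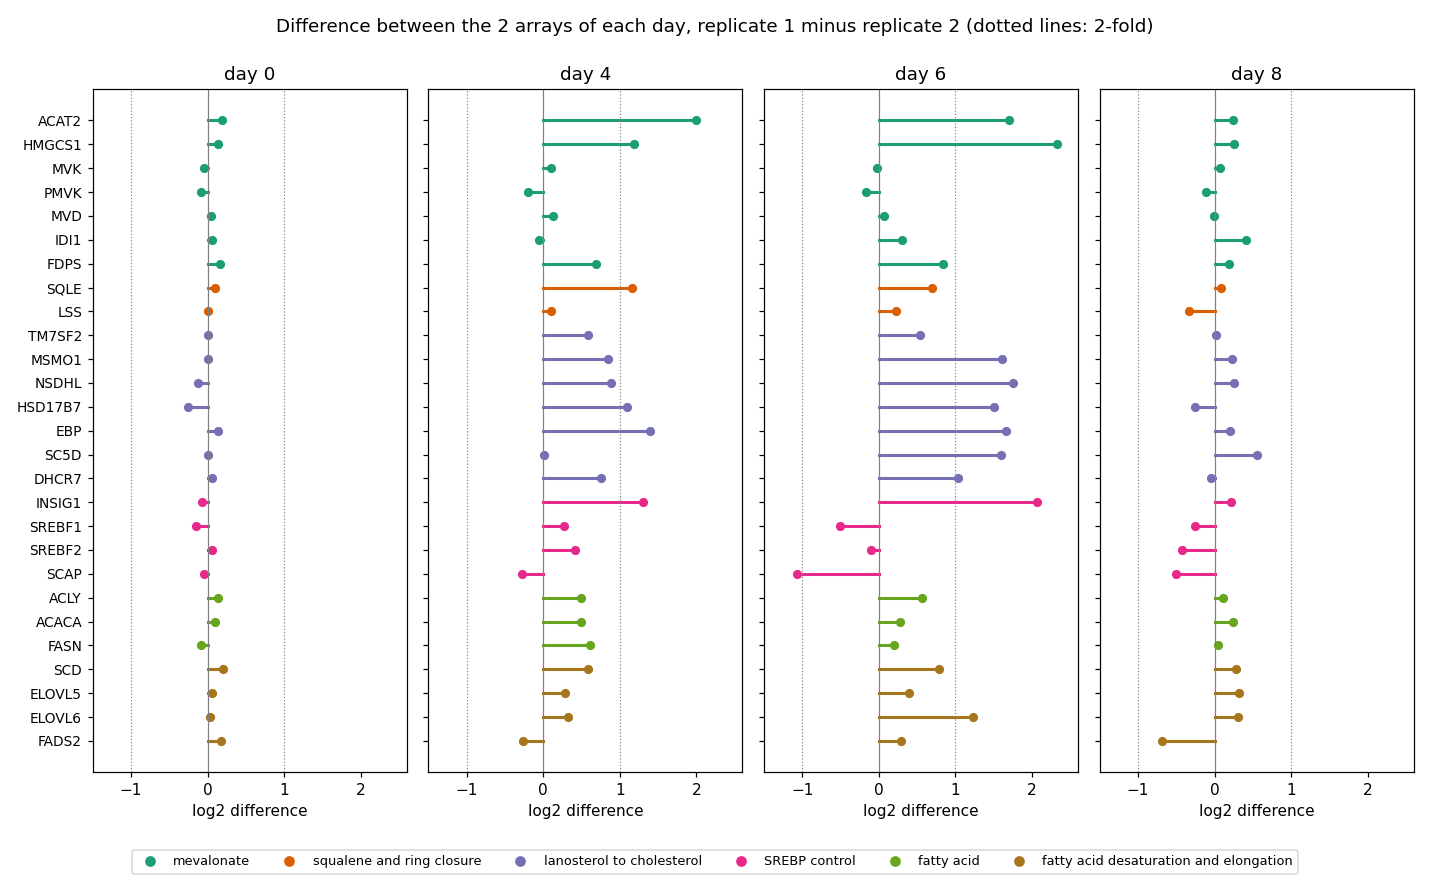
Difference in log2(intensity + 32) between the 2 arrays of each day, replicate 1 minus replicate 2, for the 27 genes, with dotted lines at 2-fold. At day 0 and day 8 no gene reaches the dotted lines, whereas 6 genes pass the right-hand line at day 4 and 10 at day 6, and SCAP passes the left-hand line at day 6.

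By position in the route, and with the probe set used for each gene, the late sterol genes lay furthest apart by median. Among the 7 genes from lanosterol to cholesterol, replicate 1 was higher in 7 at day 4 and in 7 at day 6, with medians of 0.85 and 1.60, and 6 of them were 2-fold apart at day 6, all but TM7SF2 (0.54). The 7 mevalonate genes had medians of 0.13 and 0.30. HMGCS1, ACAT2 and FDPS lay apart, and for each of MVK, PMVK and MVD the arrays of a day lay within 0.20 on both days. IDI1 counted with a probe set near the array median (-0.05 and 0.30). Of its others, 2 lay apart by 1.57 and 1.64 at day 4 and by 1.57 and 1.83 at day 6. SQLE and LSS had medians of 0.63 and 0.46. The 3 genes that start fatty acid synthesis had medians of 0.50 and 0.28, and the 4 desaturases and elongases 0.31 and 0.58. SREBF2 differed by 0.41 at day 4 and by -0.10 at day 6, and SREBF1 by 0.27 and -0.51.

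Across the 27 members the difference at day 4 correlated with that at day 6 with a Pearson's r of 0.73, and across all 13647 genes with r = 0.60. Genes are not independent replicates, and the value is a description of 4 arrays. SC5D stood off this relation, with 0.01 at day 4 and 1.60 at day 6. SQLE lay on the other side, with 1.16 at day 4 and 0.69 at day 6.

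**Figure D4:**
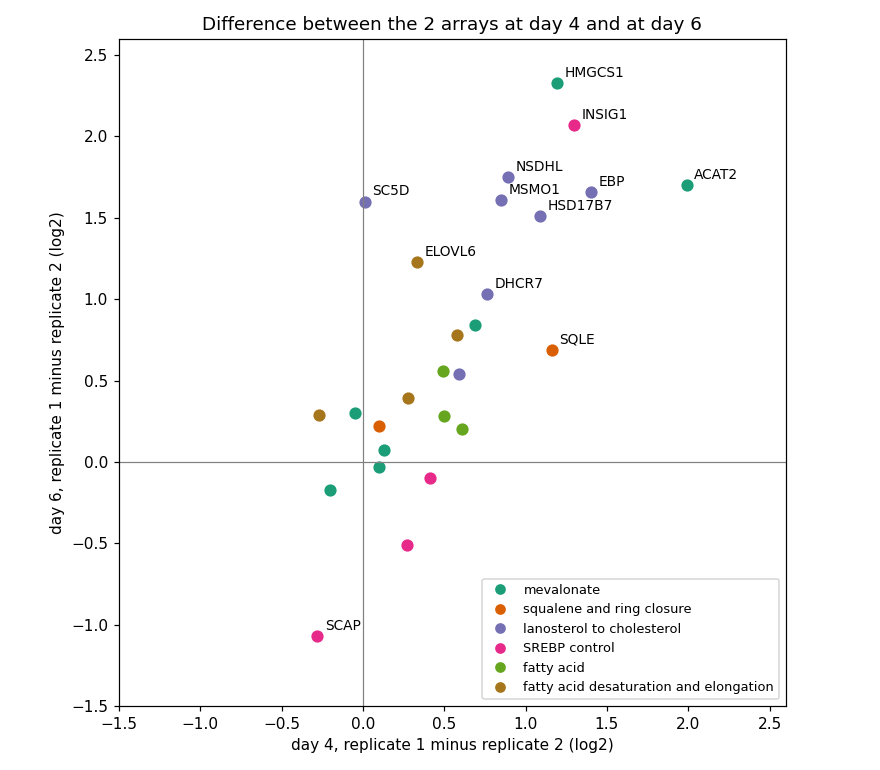
Difference between replicate 1 and replicate 2 at day 4 (x axis) and at day 6 (y axis), in log2 units, for the 27 genes, coloured by step of the route. HMGCS1, INSIG1, ACAT2 and EBP lie at the upper right, SC5D lies near 0 on the x axis, and SCAP lies at the lower left.

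Other measures moved with the same arrays. The 3' to 5' signal ratio of the ACTB control probes, which tracks RNA degradation, was 19.0 (day 4) and 31.0 (day 6) on replicate 1, and lay between 8.92 and 16.0 on the other 6 arrays. The ratio of GAPDH was 2.22 on replicate 1 and 2.15 on replicate 2 of day 4, and 3.73 and 3.41 at day 6. The summed intensity of 11 markers of yolk sac or hepatic endoderm was 3735 on replicate 1 and 26084 on replicate 2 of day 4, and 821 and 8079 at day 6, against 1349 and 1339 at day 0 and 16300 and 12821 at day 8. Of these 11 markers, 9 and 9 were above the array median at day 4, 4 and 9 at day 6, and APOA1 and ALB were below it on both days. Endoderm markers were thus dimmer in sum on replicate 1 of both days. On these arrays 23 (day 4) and 22 (day 6) of the 27 members were higher, against 63.4% and 56.4% of all genes.

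The summed intensity of 8 smooth muscle and fibroblast markers was 24340 on replicate 1 and 14984 on replicate 2 of day 4, and 20262 and 11150 at day 6, against 36715 and 36494 at day 0 and 12736 and 12844 at day 8. All 8 were above the array median on both replicate 1 arrays and 5 on both replicate 2 arrays. The 7 endothelial markers summed to 41765 on replicate 1 and 51005 on replicate 2 of day 4, and to 36020 and 56251 at day 6, where CLDN5, a tight junction protein, stood at 9.07 and 12.12 and CD34 at 10.08 and 12.09. Erythroid markers summed to 1510 and 752 at day 4, and to 1406 and 5741 at day 6. No marker can be at 0, since the deposited values start at 8.61 units. The part of these cell types or of RNA integrity in the differences between arrays was not tested, and in bulk RNA fewer cells of a type and less RNA per cell cannot be told apart.

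In 15 members, 30 other probe sets passed the filter, and they did not all show the difference between replicates. At day 6 the 3 others of EBP differed by 0.05 to 1.28, the 3 of SCD by -0.03 to 0.69 and the 2 of ELOVL5 by -0.95 to 0.27, beside 1.66, 0.78 and 0.39 for those used. The EBP probe set at 0.05 lay near the array median on all arrays, and the remaining EBP ones differed by 1.21 and 1.28. The 2 others of INSIG1 lay apart by 1.57 and 1.72 at day 4 and by 1.75 and 2.22 at day 6, beside 1.30 and 2.07 for the one used. The second probe set of NSDHL gave 0.88 and 1.77, beside 0.89 and 1.75. For IDI1, the isomerase of isopentenyl pyrophosphate, the probe set used under the rule lay between 6.65 and 7.20 on all arrays, near the array median, and differed by -0.05 at day 4 and 0.30 at day 6. Of its 3 probe sets with the suffix _x_at, 2 lay apart by 1.57 and 1.64 at day 4 and by 1.57 and 1.83 at day 6. One of these 2 had a log2 intensity of 11.45 and 11.46 (day 0), 12.62 and 10.98 (day 4), 12.90 and 11.07 (day 6) and 11.51 and 11.17 (day 8).

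LSS likewise had a second probe set that lay apart by 0.99 at day 4 and 0.59 at day 6, beside 0.10 and 0.22 for the one used. Of the 3 other SQLE probe sets, tested on their own at day 8 against day 0, 1 rose by 0.86 (adjusted p = 0.0324), and the others differed by 0.39 (adjusted p = 0.419) and -0.05 (adjusted p = 0.956).

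Genes around the route were described from lists chosen with earlier results of these data known. Their counts stand beside the 18.4%, 23.4% and 24.5% of all genes tested that were called at day 4, day 6 and day 8 against day 0. Of 8 genes tested for sterol export and targets of the sterol receptor LXR, 1 rose at day 4, 1 rose and 1 fell at day 6, and 1 rose at day 8, with medians of 0.32, 0.23 and 0.67. ABCG1, a transporter that exports sterol, had 5.55 and 5.63 (day 0), 7.50 and 8.36 (day 4), 6.76 and 9.52 (day 6) and 9.75 and 9.13 (day 8). It rose at day 8 against day 0 by 3.85 ± 0.81 (SE; adjusted p = 0.0153), where day 0 lay below the array median, and its replicate 1 of day 6 was lower than replicate 2, opposite to HMGCS1. SMPDL3A, an LXR target, rose by 1.68 at day 4 and 1.53 at day 6 (adjusted p 0.0411 and 0.0479). It was higher on replicate 1, the same way as HMGCS1, with 9.35 and 8.59 at day 4 and 9.42 and 8.21 at day 6. Over the 8 genes the median of replicate 1 minus replicate 2 was -0.16 at day 4 and -0.34 at day 6. NR1H3, the gene of an LXR, fell by 0.67 at day 6 (adjusted p = 0.0139).

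Among 14 genes of sterol uptake and storage, LIPA, the lysosomal acid lipase that frees sterol from its esters, rose at each day, by 1.75, 1.77 and 1.89 ± 0.17 (SE; adjusted p 0.000717, 0.000644 and 0.00047). It was even between arrays, at 9.32 and 9.34 (day 0), 11.07 and 11.10 (day 4), 11.01 and 11.19 (day 6) and 11.33 and 11.10 (day 8). NPC2, which carries sterol in the lysosome, fell by 0.93 at day 6 (adjusted p = 0.0312). The list's medians were 0.03, -0.10 and -0.04.

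Of 20 genes tested for fatty acid oxidation, 1 rose and 2 fell at day 4, none rose and 4 fell at day 6, and 2 rose and 3 fell at day 8, with medians of 0.09, -0.12 and -0.16. CPT1A, the gate of mitochondrial import of fatty acids, fell by 1.20, 1.28 and 1.10 (adjusted p 0.0283, 0.0192 and 0.0319), and ECI1, an isomerase of the pathway, by 0.85, 1.46 and 1.36 (adjusted p 0.0207, 0.00206 and 0.0028). ACAA2, the last thiolase, fell by 1.45 at day 6 and 1.46 at day 8 (adjusted p 0.00848 and 0.00808), while HADHB, a subunit of the trifunctional protein, rose by 0.69 at day 4 and 0.60 at day 8 (adjusted p 0.0218 and 0.0303). The other calls were of ETFB at day 6 and PPARA at day 8. The counts of this list lay near the shares of all genes called, 18.4%, 23.4% and 24.5%.

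Of 16 genes of fatty acid activation and triglyceride, 2 rose at day 4, 2 rose and 1 fell at day 6, and 2 rose and 1 fell at day 8, with medians of 0.04, 0.07 and -0.06. FABP5, a fatty acid binding protein, fell by 1.61 at day 6 and 1.83 at day 8 (adjusted p 0.0182 and 0.0109). ACSL5, an acyl-CoA synthetase, rose by 0.68, 0.50 and 0.57 (adjusted p 0.00439, 0.0137 and 0.00767), DGAT1, which completes triglyceride, rose by 0.97 at day 4 and 1.18 at day 8 (adjusted p 0.0491 and 0.0206), and LPIN2 by 1.06 at day 6 (adjusted p = 0.0166).

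Of 11 further enzymes of fatty acid elongation and desaturation, 1 rose and 1 fell at day 4, 2 fell at day 6 and 2 at day 8, with medians of 0.02, -0.18 and -0.27. The elongase ELOVL7 fell by 1.57 at day 4 and 1.11 at day 6, ELOVL4 fell by 2.02 at day 8, and the dehydratase HACD2 fell by 0.79 at day 6 and 0.86 at day 8, while OXSM of mitochondrial synthesis rose by 0.89 at day 4. Of 10 genes that supply acetyl-CoA and NADPH, TKT, the transketolase, fell by 1.09 at day 6 and 0.89 at day 8 (adjusted p 0.00792 and 0.017), and the medians were -0.12, -0.28 and -0.43. Of 12 genes on the branches of mevalonate, RABGGTB, a subunit of the enzyme that prenylates RAB proteins, fell by 0.83 and 0.98 on these days (adjusted p 0.026 and 0.0136), and the medians were -0.03, -0.13 and -0.28. Among 9 further regulators of SREBP no call was made on any day, with medians of 0.29, 0.19 and -0.03.

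Of the marker lists, 7 of 7 endothelial genes rose and 6 of 6 genes of undifferentiated cells fell against day 0 on each day. Of 9 endoderm markers tested, 3 rose at day 8 and none passed at day 4 or day 6. Of 5 erythroid markers 2, 2 and 5 rose, of 8 smooth muscle and fibroblast markers 3, 4 and 3 fell, and of 4 neural markers 2, 2 and 1 fell at day 4, day 6 and day 8.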

How the data were processed

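RNA of H9 cells was measured on 8 arrays, 2 per group, grouped by sample title. The source names of 3 later arrays say day 4, against their titles, descriptions and stages, which were followed. The authors deposited 1 linear intensity per probe set and array. The submitters' processing notes name MAS5, and its version and scaling are not given. Array medians were 88.7 to 93.2 units.

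Values were taken as log2(intensity + 32), which understates changes of dim genes. Of 54675 probe sets, 41097 carried a single gene symbol in the platform annotation and were named. A gene was tested when it exceeded the median of its array on 2 or more arrays (13647 of 19775). Testing used limma 3.58.1 (R 4.3.3): a single model of all groups, eBayes with trend, 4 residual and 2.84 prior degrees of freedom, two-sided, Benjamini-Hochberg over the genes tested. The code was tested on simulated data. The 27 measured of 30 members are described, plus up to 4 called genes per further list, by smallest adjusted p. Members and lists were chosen with earlier results of these data known. Of 21 alternatives, 2 were added after the values had been seen, removing replicate 1 or replicate 2 of both day 4 and day 6. A group reduced to 1 array borrows its variance from the others. Promoters were searched with Python 3.11.15.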

Additional observations from a re-analysis of the deposited data

How the results depend on the processing

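Under 21 alternatives, 37 of 63 counts of called members against day 0 moved by over 1.5 times. The counts of 1, 3 and 1 (day 4, day 6, day 8) became 2, 3 and 2 with the larger offset (18.3%, 23.5% and 24.5% of all genes). They were 0, 3 and 0 without a filter (12.6%, 15.8% and 16.6% of all genes) and with median centring (17.7%, 22.3% and 23.7%). The same counts came with every probe set tested on its own (15.8%, 20.1% and 21% of all probe sets), counting the one used for each gene. At day 8, 2 were called with the stricter filter (30.2% of all genes) or eBayes without trend (25.3%). With only the arrays of the 2 groups, 8 were called at day 8, against 49.7% of all genes. The members called varied with the single array left out, each of these fits having 1 array in a group. No member was called whenever a day 0 array was missing, and far fewer of all genes were called then than in the main fit.

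With replicate 1 of both day 4 and day 6 removed the counts were 7, 9 and 8 (34.9%, 44.7% and 49.7% of all genes), and with replicate 2 removed 12, 14 and 9 (35.5%, 38.1% and 49.7%), plus 12 at day 8 against day 6 and 8 at day 8 against day 4 (17.6% and 19.2%), where the other fits gave 0 members. At day 6, HMGCS1 and MSMO1 reversed to -0.72 and -0.68 with replicate 1 removed. ACAT2 and EBP reversed to 0.77 and 0.68 at day 4 and to 0.69 and 0.55 at day 6 with replicate 2 removed. The cause was not tested.

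With the replicate number as a block the counts were 2, 3 and 2 (22.3%, 28.4% and 31.1% of all genes), TM7SF2 being called beside ACACA at day 4 and day 8. The labels name no shared batch and each comparison has 2 pairs, so pairing is not established. Differences between replicates correlated across genes with r = 0.60 for days 4 and 6, 0.41 for days 6 and 8, 0.19 for days 4 and 8, and -0.02 to 0.02 between day 0 and any later day.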
